A study of Arabidopsis thaliana with 24 samples.

Results

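The genes described here encode cytosolic ribosomal proteins of the large (60S) subunit of Arabidopsis thaliana. They were chosen as 60 listed loci of 27 protein families, and each was measured through the probe that the platform annotation pairs with it. A probe was found for 40 of the 60 loci, 1 probe each, and the other 20 loci were not analysed here. Of these 40, 38 from 21 families had values on every day and were tested, among 10607 tested genes of 13745 with a probe. No member of the families L3, L5, L10, L11, L23a and L24 was measured. Among the 38, only AT2G27530 has a symbol of its own in the RefSeq table used (TAIR10.1), PGY1. The other family names are given as background from the usual naming of Arabidopsis ribosomal proteins.

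The large subunit joins amino acids at its peptidyl transferase centre and lets the new chain out through an exit tunnel. Its mobile L1 stalk guides spent tRNA out of the ribosome, and its P stalk recruits the elongation factors. In Arabidopsis most of these proteins are encoded by several paralogous genes, and dividing tissues such as meristems and young flowers need much ribosomal protein mRNA. Mutants of some members, PGY1 (PIGGYBACK1) among them, change leaf shape and polarity. An mRNA that loses its 5′ cap is open to 5′ to 3′ decay, so a pool of decapped transcripts holds decay intermediates and cleaved RNA.

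All samples came from the inflorescences of plants with the genotype 35S:AP1-GR ap1 cal, which lack the floral regulators AP1 and CAL and form masses of meristems. They express AP1 fused to a glucocorticoid receptor domain from the broadly active 35S promoter, and 1 µM dexamethasone activates the fusion so that flowers start together. Tissue close to the inflorescence surface was taken on days 0, 1, 2, 3, 4 and 5, in 4 biologically independent sets, each time pooled from about 25 plants. All groups share this genotype, and no group of another genotype or without dexamethasone is compared here. Decapped mRNA, isolated from poly(A)+ RNA by a form of RLM-RACE, was hybridized with total poly(A) mRNA of the same sample to a 2-colour long-oligonucleotide array. Each day had 4 arrays, 2 with the decapped mRNA in Cy3 and 2 with it in Cy5, which makes 24 arrays.

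Each value is a log ratio of these pools, likely log2 and likely decapped over total. The log base, the direction, and how the authors corrected and normalized the signals are not stated in the labels used here. Correlations over all probes ranged from 0.20 to 0.83 over the 276 pairs of arrays, so all arrays were turned one way before deposit. Decapped mRNA is named first for each array whatever its dye. Should the deposited direction be the reverse, each "lower" reads "higher". The ratio gives no expression level, so the tissue label could not be checked against marker levels. In such bulk tissue, a change in the cells present and a change within cells cannot be told apart. Probes are single and their sequences were not used here, so hybridization by paralogues of the same family was not tested.

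Transcripts of the large subunit genes were mostly scarcer among decapped than among total mRNA. Averaged over the 6 days, 27 of 38 members (71.1%) were lower at an adjusted p under 0.05 in limma, against 43.5% of all 10607 genes. Another 5 members (13.2%) were higher, against 29.7% of all genes, and 6 were not called. The member means ran from -4.40 to 1.39 with a median of -1.36, and the median of all genes was -0.16. On every one of the 24 arrays 16 members lay below 0, as did 12.4% of all genes, and 0 members lay above 0 on every array, against 7.23%. With the 24 arrays taken as independent, the median 95% interval of a member's mean was ±0.39 (range 0.19 to 0.78). These intervals, and p-values below for means over the 6 days not marked otherwise, take no account of likeness among arrays of 1 set. They can overstate precision. Each day had 1 array of each set, so in tests between days the same omission can instead understate precision. The SD of the 4 set medians of the members was 0.62. With each set averaged first (n = 4), 24 members were lower and 1 was higher, against 35% and 21.1% of all genes. Without set 4 the count of higher members was 1, and without set 1 it was 3. The count of all genes higher fell from 3148 to 2561 without set 4.

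**Figure D1:**
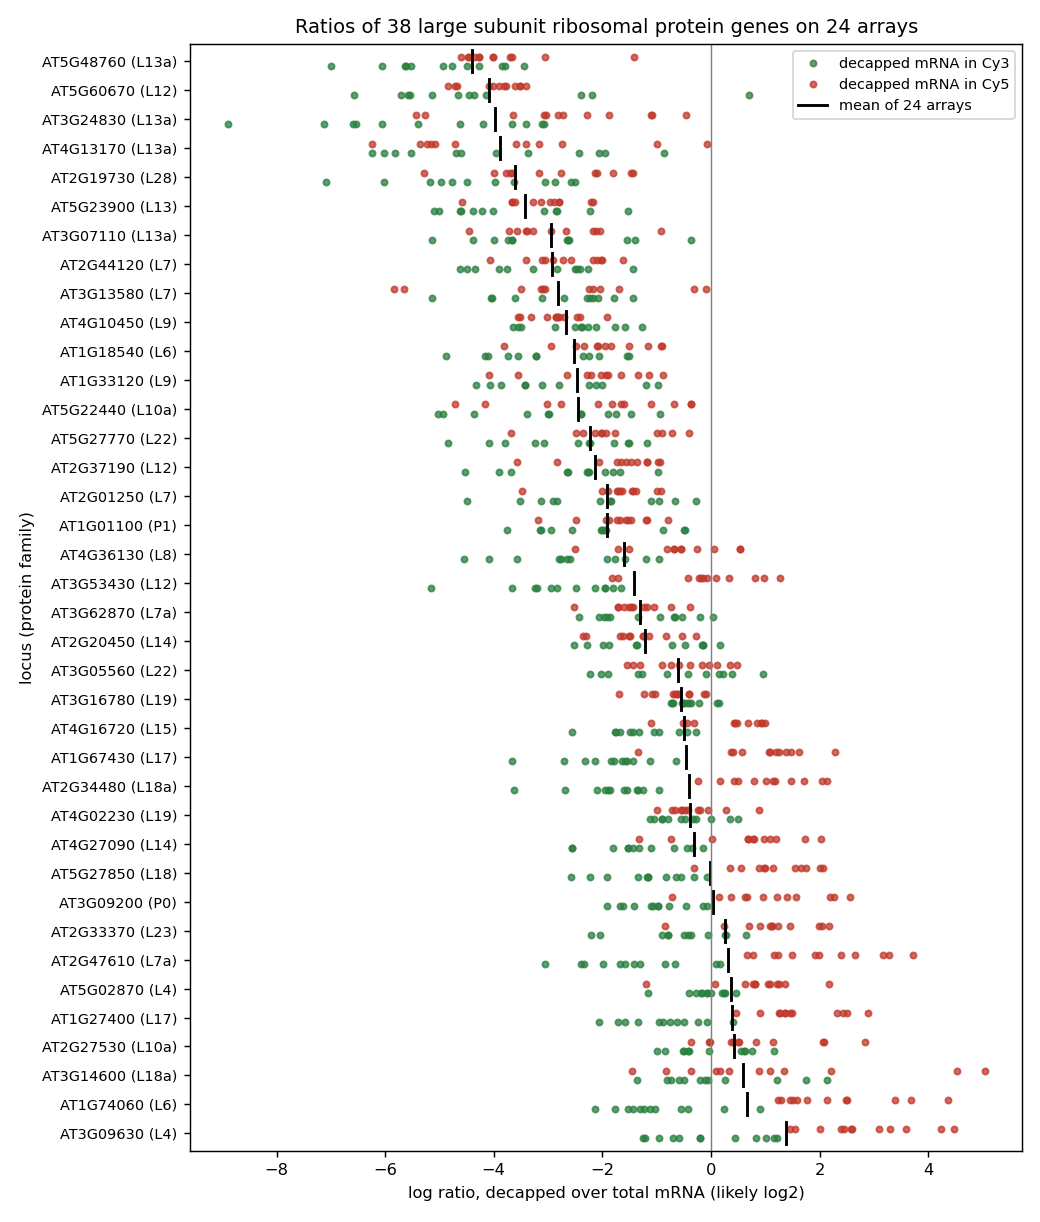
Log ratio (horizontal axis, decapped over total mRNA, likely log2) of the 38 tested members (rows, locus and protein family) on each of 24 arrays, green with decapped mRNA in Cy3 and red in Cy5, with the mean of 24 arrays as a black bar. Of the upper 17 members all but AT5G60670 lie below 0 on every array, and all red points lie to the right of all green ones in AT3G09630, AT1G74060, AT2G47610, AT1G27400 and AT2G34480.

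L12 forms the base of the P stalk together with P0, and P1 is one of the acidic stalk proteins that contact elongation factors. All 3 L12 genes were lower. AT5G60670 (L12) ran from -6.58 to 0.71 with a median of -4.11 and lay below 0 on 23 of 24 arrays. On day 0 its values in sets 1 to 4 were -5.70, 0.71, -4.72 and -4.84, so 1 array of set 2 stood far above the other three of that day. Its mean over the 6 days was -4.08 ± 1.43 (SD, n = 24), with an adjusted p of 1.52e-10.

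AT2G37190 (L12) ran from -4.53 to -0.94, with a mean of -2.13 ± 0.99 (SD, n = 24) and all arrays below 0. AT3G53430 (L12) lay below 0 on 19 arrays, with a mean of -1.42 ± 1.66 (SD, n = 24). The positive values of AT3G53430 all came from arrays with decapped mRNA in Cy5, where its mean was -0.09 ± 0.94 (SD, n = 12), against -2.75 ± 1.00 (SD, n = 12) in Cy3. AT1G01100 (P1) lay below 0 on all arrays, from -3.76 to -0.48, with a mean of -1.91 ± 0.88 (SD, n = 24). AT3G09200 (P0) was not called, with a mean of 0.04 ± 1.33 (SD, n = 24) and an adjusted p of 0.809. Its 12 Cy3 arrays all lay below 0, from -1.92 to -0.08, and 11 of its 12 Cy5 arrays lay above 0, up to 2.56.

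L10a is the protein of the L1 stalk, and of its 2 measured genes 1 lay well below 0 and 1 near it. AT5G22440 lay below 0 on all 24 arrays, from -5.03 to -0.36, with a mean of -2.45 ± 1.41 (SD, n = 24) and an adjusted p of 1.66e-07. PGY1 (AT2G27530) gave -0.40, -0.03, 0.76, 0.51, 0.62 and 0.83 on days 0 to 5 in set 1, and -0.04, -0.01, 1.16, -0.37, -0.50 and 0.41 in set 2. In set 3 PGY1 gave 0.37, 0.60, 0.50, 0.55, 1.15 and -0.84, and in set 4 it gave 2.84, -0.52, 2.07, -0.99, 2.09 and -0.42. The PGY1 values thus straddled 0 in every set, and the values above 2 were all from Cy5 arrays of set 4.

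The mean of PGY1 was 0.43 ± 0.95 (SD, n = 24), higher at an adjusted p of 0.0187. That call was lost without set 1, without set 4 and with set means (adjusted p 0.0668 in limma, n = 4 sets). By orientation the mean of PGY1 was -0.00 ± 0.71 (SD, n = 12) in Cy3 and 0.86 ± 0.99 (SD, n = 12) in Cy5, a difference that did not pass the test (0.87, SE 0.32, adjusted p 0.471). PGY1 lay above AT5G22440 on all 24 arrays, by 2.89 ± 1.57 (SD, n = 24) on average, and between 1.49 and 4.26 in the set means.

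L4 and L17 reach into the exit tunnel. Both L4 genes were called higher, and L4 was the only family in which every measured gene was. AT3G09630 (L4) had the highest mean of all members. Its values on days 0 to 5 were 1.02, 3.09, 1.21, 3.29, 1.17 and 1.55 in set 1, and -1.25, 2.40, -0.59, 2.01, -0.20 and 2.60 in set 2. They were 2.58, -0.95, 2.45, -1.22, 1.45 and -0.70 in set 3, and 3.59, -0.21, 4.47, 0.83, 4.23 and 0.45 in set 4. The high and low values alternate between days in step with the dye, since the orientation changed from day to day within a set. The 12 Cy5 arrays (1.45 to 4.47) all lay above the 12 Cy3 arrays (-1.25 to 1.21).

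The mean of AT3G09630 was 1.39 ± 1.72 (SD, n = 24), with an adjusted p of 1.82e-06, and it was the 1 member still higher with set means (adjusted p 0.00923 in limma, n = 4 sets). In Cy3 alone its mean was -0.04 ± 0.93 (SD, n = 12), and in Cy5 alone it was 2.81 ± 0.96 (SD, n = 12). AT5G02870 (L4) ran from -1.20 to 2.18, with a mean of 0.37 ± 0.79 (SD, n = 24) and an adjusted p of 0.0227. This call of AT5G02870 was lost without set 1, without set 4 and with set means (adjusted p 0.0796 in limma, n = 4 sets).

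The L17 genes were called in opposite directions, each by a small mean with a wide spread. AT1G27400 ran from -2.06 to 2.90, with a mean of 0.39 ± 1.46 (SD, n = 24) and an adjusted p of 0.0199. AT1G67430 ran from -3.66 to 2.28, with a mean of -0.46 ± 1.66 (SD, n = 24) and an adjusted p of 0.0214. Both calls were lost with set means (adjusted p 0.0564 and 0.0638 in limma, n = 4 sets). The call of AT1G27400 was also lost without set 4, and that of AT1G67430 without set 1, 2 or 4. Both genes had a mean below 0 in Cy3 (-0.86 and -1.87) and above 0 in Cy5 (1.65 and 0.95).

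L8 lies close to the peptidyl transferase centre, and L15, L19 and L23 lie in the core or on the face toward the small subunit. AT4G36130 (L8) ran from -4.54 to 0.54 and was lower, with a mean of -1.61 ± 1.37 (SD, n = 24) and an adjusted p of 8.69e-07. Its means were -2.54 in Cy3 and -0.68 in Cy5, a difference that passed the test (adjusted p 0.0412 in limma). On Cy5 arrays alone AT4G36130 was not called (adjusted p 0.0698 in limma). AT4G16720 (L15) was lower at -0.50 ± 1.03 (SD, n = 24), with means of -1.28 in Cy3 and 0.28 in Cy5. AT3G16780 and AT4G02230 (both L19) lay close to 0 with small spreads. Their means were -0.56 ± 0.41 and -0.39 ± 0.51 (SD, n = 24), both called lower, with 22 and 19 arrays below 0. The call of AT4G02230 was lost with set means (adjusted p 0.0686 in limma, n = 4 sets). AT2G33370 (L23) was not called, with 10 arrays below 0 and a mean of 0.26 ± 1.20 (SD, n = 24).

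The lowest mean was that of an L13a gene, which encodes a surface protein that in human cells is also known to silence translation of certain mRNAs when released from the ribosome. All 4 L13a genes lay below 0 on every array. AT5G48760 (L13a) gave -5.61, -4.60, -6.05, -4.47, -5.53 and -3.70 on days 0 to 5 in set 1, and -4.27, -3.06, -3.45, -1.42, -3.80 and -4.35 in set 2. It gave -4.01, -3.85, -3.67, -4.77, -4.27 and -4.49 in set 3, and -4.46, -7.00, -4.01, -5.63, -4.28 and -4.94 in set 4. The array closest to 0 was thus day 3 of set 2, and even that lay at -1.42. Its mean of -4.40 ± 1.10 (SD, n = 24) was the lowest of all members, with an adjusted p of 2.61e-13. With set means its adjusted p was 0.000567 in limma (n = 4 sets).

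AT3G24830 (L13a) ran from -8.90 to -0.46 with a median of -3.53, and its mean was -3.98 ± 2.10 (SD, n = 24). AT4G13170 (L13a) ran from -6.24 to -0.07 with a median of -4.28, and its mean was -3.89 ± 1.80 (SD, n = 24). AT3G07110 (L13a) ran from -5.14 to -0.37, with a mean of -2.94 ± 1.16 (SD, n = 24). AT5G48760, AT3G24830 and AT3G07110 were lowest in set 4 and closest to 0 in set 2, with set 2 means of -3.39, -2.51 and -1.40 (n = 6 arrays each). AT4G13170 was lowest in set 3 and closest to 0 in set 1, with set means of -5.43 and -2.38 (n = 6 arrays each).

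Other proteins of the body of the subunit were also low. AT2G19730 (L28, a protein that budding yeast lacks) ran from -7.09 to -1.44 with a median of -3.64, and its mean was -3.60 ± 1.45 (SD, n = 24). AT5G23900 (L13) ran from -5.10 to -1.52 with a median of -3.20, and its mean was -3.43 ± 0.97 (SD, n = 24). All 3 genes of L7 were lower, AT2G44120 at -2.92 ± 0.90, AT3G13580 at -2.81 ± 1.44 and AT2G01250 at -1.91 ± 1.01 (SD, n = 24). Both L9 genes were lower, AT4G10450 at -2.67 ± 0.65 and AT1G33120 at -2.47 ± 1.05 (SD, n = 24). None of these 7 genes rose above 0 on any array. For L22, AT5G27770 was lower at -2.22 ± 1.11 and AT3G05560 at -0.61 ± 0.88 (SD, n = 24), the latter with 17 arrays below 0 and an adjusted p of 0.00566.

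L6, L7a, L14, L18 and L18a gave mixed results. AT1G18540 (L6) lay below 0 on all arrays at -2.53 ± 1.10 (SD, n = 24), whereas AT1G74060 (L6) was called higher at 0.67 ± 1.90 (SD, n = 24). The call of AT1G74060 (adjusted p 0.00263) was lost without set 4 and with set means (adjusted p 0.0546 in limma, n = 4 sets). Its means were -0.95 ± 0.86 in Cy3 and 2.29 ± 1.03 in Cy5 (SD, n = 12). Taken alone, the Cy3 arrays thus gave a call in the opposite direction (adjusted p 0.00963 in limma).

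AT3G62870 (L7a) was lower at -1.30 ± 0.68 (SD, n = 24), with 23 arrays below 0, and AT2G47610 (L7a) was not called at 0.31 ± 2.02 (SD, n = 24). AT2G20450 (L14) was lower at -1.21 ± 0.80 (SD, n = 24), and AT4G27090 (L14) was not called at -0.31 ± 1.31 (SD, n = 24). AT5G27850 (L18) had a mean of -0.01 ± 1.38 (SD, n = 24), whose sign turned when arrays were centred (0.00 on the median of all probes, 0.05 with scaling as well, 0.14 on the median of the tested genes). Of the L14 genes, AT2G20450 lay below 0 on 23 arrays. AT4G27090 had means of -1.29 ± 0.80 in Cy3 and 0.66 ± 0.95 in Cy5 (SD, n = 12). Its mean near 0 thus joins opposite signs, and its dye difference passed the test (1.95, adjusted p 0.00679 in limma).

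AT2G34480 (L18a) was called lower at -0.41 ± 1.63 (SD, n = 24), a call lost without set 1 and with set means (adjusted p 0.073 in limma, n = 4 sets). AT3G14600 (L18a) was not called at 0.59 ± 1.65 (SD, n = 24). The set means of AT3G14600 were 2.60, -0.45, -0.38 and 0.57 for sets 1 to 4 (n = 6 arrays each). Set 1 stood above the other sets, and the mean without set 1 was -0.09.

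Of the 40 members with a probe, AT1G74050 (L6) and AT3G48960 (L13) were not tested. Their deposited values matched those of other probes to 6 decimals on 5 and 6 days, and their values were read as no measurement on some days. AT1G74050 had values on 5 days, from -0.19 to 0.22, and AT3G48960 had values on 2 days, with deposited values from -0.41 to 1.25. Over the days kept, their means were 0.02 (adjusted p 0.686) and 0.25 (adjusted p 0.305).

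The ratios of many members moved with dye orientation. The difference between orientations passed the test in 13 of 38 members (34.2%), each with the higher value in Cy5 (adjusted p under 0.05 in limma). Of all genes 73 (0.688%) were called in this direction and 1 (0.00943%) in the other. A higher mean in Cy5 than in Cy3 was seen in 34 of 38 members, against 50.3% of all genes. The median member mean was -1.99 on Cy3 arrays and -1.04 on Cy5 arrays, where the medians of all genes were -0.18 and -0.16. In Cy3, 37 of 38 member means lay below 0, and in Cy5, 24 lay below and 14 above 0. Without set 4 the count of members with a dye difference was 7, and without set 2 it was 8. That of all genes fell from 74 to 26 without set 4.

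The widest gap was that of AT2G47610 (L7a), with a mean of -1.42 ± 0.98 in Cy3 and 2.04 ± 1.02 in Cy5 (SD, n = 12). Its difference was 3.45 (SE 0.36, adjusted p 1.06e-05), and its lowest Cy5 array (0.66) lay above its highest Cy3 array (0.16). The same separation of all 12 Cy5 arrays from all 12 Cy3 arrays was seen in AT3G09630 (L4), AT1G74060 (L6), AT1G27400 (L17) and AT2G34480 (L18a). These 5 members compare with 22 genes of all 10607 (0.207%). A difference of at least 2 was found in 10 members, against 0.443% of all genes.

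The 5 members called higher each had a mean above 0 in Cy5 and at or below 0 in Cy3, from -0.95 to -0.00. Of the 27 called lower, 24 had means below 0 in both orientations (51.8% of all genes did), and AT4G16720 (L15), AT1G67430 (L17) and AT2G34480 (L18a) had opposite signs. In all, 13 members (34.2%) had opposite signs in the 2 orientations, against 10.3% of all genes. On Cy3 arrays alone 32 members were lower and 0 higher, against 36.9% and 22.5% of all genes. On Cy5 arrays alone 20 were lower and 11 higher, against 35.1% and 22.9%. Among the 6 lowest members the dye differences ran from 0.15 for AT4G13170 (L13a) to 2.49 for AT3G24830 (L13a, SE 0.69, adjusted p 0.167). None of these 6 passed the test.

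**Figure D2:**
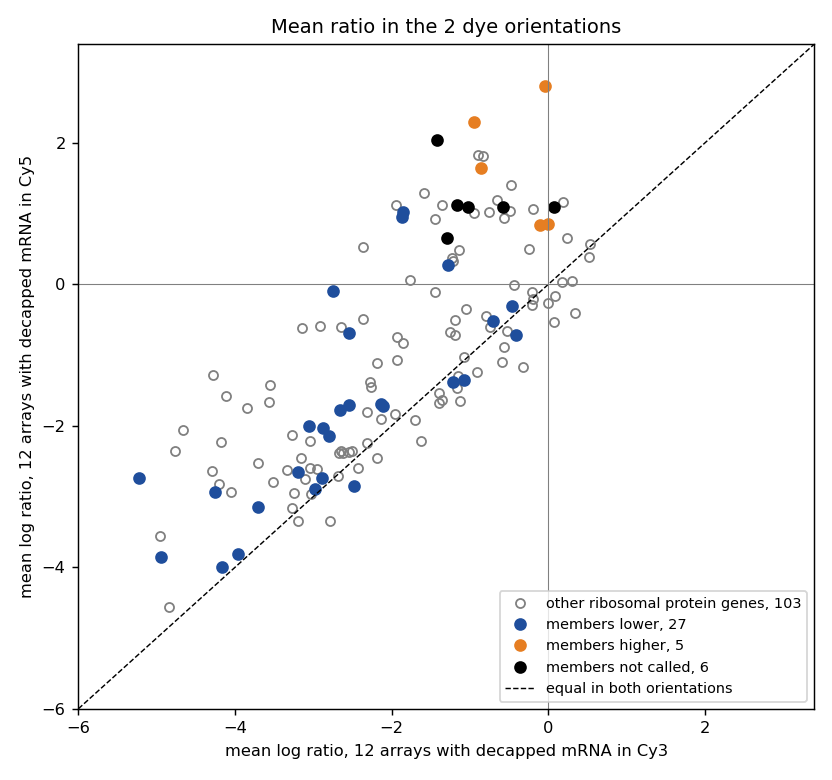
Mean log ratio over the 12 arrays with decapped mRNA in Cy3 (horizontal axis) and the 12 with it in Cy5 (vertical axis), 1 point per gene, with members filled and the 103 other measured ribosomal protein genes as open circles. Points above the dashed line are higher in Cy5, which holds for 34 of 38 members, and every member called higher lies at or left of 0 in Cy3.

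Dye orientation took a median of 20.2% of a member's sum of squares over the arrays, against 2.37% for all genes. The set took 31.4% against 23.6%, and the day took 6.61% against 13.5%. Of the 74 genes with a dye difference, 38 (51.4%) were ribosomal protein genes, which made up 141 (1.33%) of the tested genes. They were 13 members, 18 of 58 small subunit genes and 7 of 45 other large subunit genes. Translation elongation genes added 2 more, and none of the 10 ribosome biogenesis genes was called.

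The members also differed between sets. The median member ratio was -1.94 in set 1, -0.93 in set 2, -0.74 in set 3 and -1.84 in set 4, where the medians of all genes were -0.08, -0.23, -0.07 and -0.25. Set 1 was the lowest set for 17 members and set 4 for 10. AT5G22440 (L10a) had set means of -3.87, -1.38, -1.39 and -3.17, and AT1G33120 (L9) had -3.63, -1.84, -1.54 and -2.87 (n = 6 arrays each). In both genes sets 1 and 4 were the low ones. AT3G07110 (L13a) went another way, with -3.09, -1.40, -3.28 and -3.98, and the set took 69.6% of its sum of squares, the highest share of any member.

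On single arrays the median member ratio ran from -3.35 (day 1, set 4, Cy3) to -0.31 (day 2, set 3, Cy5). All 38 members lay below 0 on the array of day 1 in set 4 and on that of day 5 in set 3, both Cy3. The fewest members below 0 on an array were 21 (day 2, set 3). The other ribosomal protein genes had low medians on the same arrays, -3.53 for the other large subunit genes and -3.15 for the small subunit genes on day 1 in set 4. The median of all genes on that array was -0.28.

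**Figure D3:**
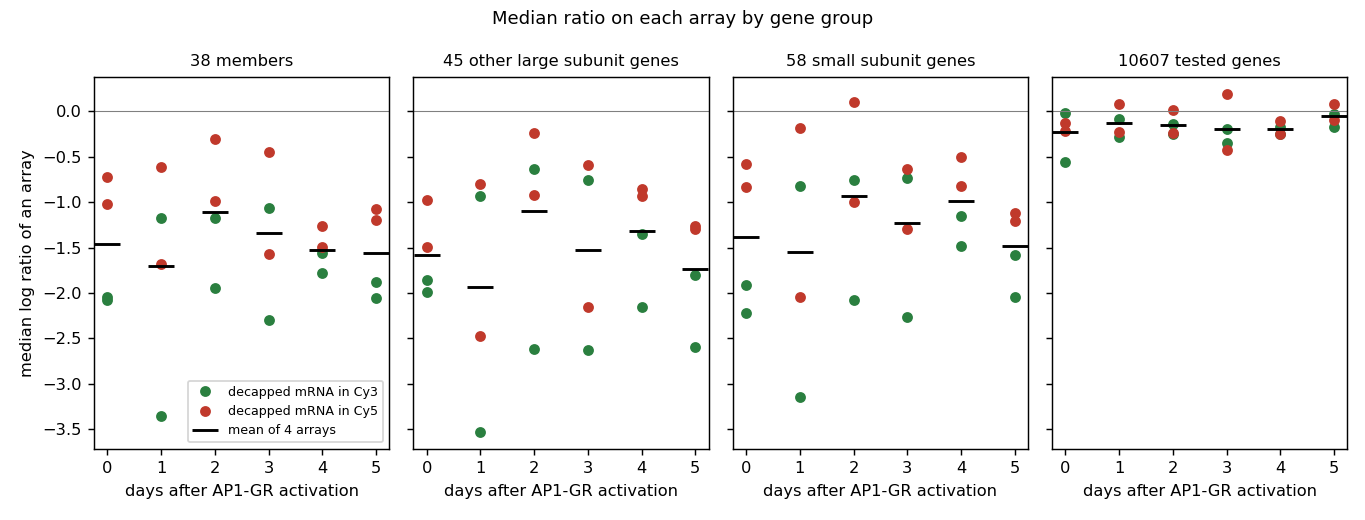
Median log ratio of an array (vertical axis) against day after AP1-GR activation, for the 38 members, 45 other large subunit genes, 58 small subunit genes and all 10607 tested genes, with decapped mRNA in Cy3 (green) or Cy5 (red) and the mean of 4 arrays as a bar. The member medians run from -3.35 to -0.31, and the medians of all genes stay between -0.56 and 0.19.

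Paralogues of a family were set side by side, with differences taken array by array and not tested. In 13 families 2 or more genes were measured. L7, L9, L12, L13a, L19 and L22 had all measured genes called lower, L4 had both called higher, and L6, L10a and L17 had 1 gene called in each direction. Of these higher calls only that of AT3G09630 (L4) held with set means, and none held on Cy3 arrays alone. The lower calls of AT1G67430 (L17) and AT4G02230 (L19) were also lost with set means. Both L17 genes were called lower on Cy3 arrays alone and higher on Cy5 arrays alone. AT1G18540 (L6) lay below AT1G74060 (L6) on all 24 arrays, by 3.20 on average (difference -3.20 ± 1.84, SD, n = 24). AT2G01250 (L7) lay above AT2G44120 (L7) on all 24 arrays, with a difference of 1.01 ± 0.50 (SD, n = 24) and set means of 0.90 to 1.07. The third L7 gene, AT3G13580, was not ordered against AT2G44120, with 12 arrays on each side.

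AT3G05560 (L22) lay above AT5G27770 (L22) on 23 of 24 arrays, by 1.62 ± 1.00 (SD, n = 24). AT2G37190 (L12) lay above AT5G60670 (L12) on 23 arrays, by 1.95 ± 1.23 (SD, n = 24). The L9 pair differed by 0.20 ± 0.85 and the L19 pair by -0.18 ± 0.51 (SD, n = 24), less than the spread between arrays in both. For the L17 pair the gap was 0.85 ± 0.64 (SD, n = 24), with AT1G27400 above AT1G67430 on 21 arrays, although both swung with the dye.

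**Figure D4:**
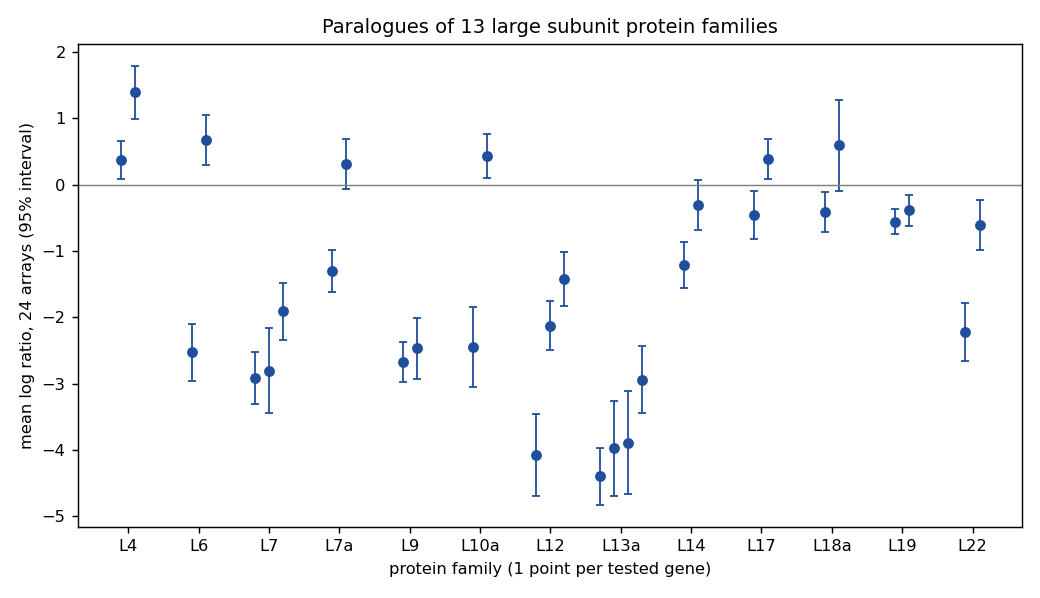
Mean log ratio over 24 arrays with its 95% interval (vertical axis) for each tested gene of the 13 families with 2 or more measured genes (horizontal axis). The 4 L13a genes lie between -4.40 and -2.94, and the genes of L6 and L10a lie on both sides of 0. The intervals take the 24 arrays as independent.

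On single days, between 18 and 23 of 38 members were lower and between 0 and 3 higher at an adjusted p under 0.05 in limma. For days 0 to 5 the counts of lower members were 20, 23, 18, 21, 21 and 22, where 27.7%, 22.2%, 19.7%, 27.1%, 23.8% and 20.8% of all genes were lower. The counts of higher members were 1, 0, 2, 1, 3 and 0, where 11.6%, 13.7%, 14%, 12.3%, 14.1% and 18.3% of all genes were higher. Lower members thus outnumbered higher ones on each day. On all 6 days 18 members (47.4%) were lower, against 14.5% of all genes, and 0 members were higher, against 7.86%. The median 95% interval of a member's day mean was ±0.94. Without set 4 the counts of lower members were 11 on day 3 and 13 on day 4. Day counts of all genes were not taken without a set, so these cannot be set against them.

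AT3G09630 (L4) was higher on 4 of the 6 days, with means of 1.48 ± 2.11 on day 0, 1.89 ± 2.13 on day 2, 1.23 ± 1.92 on day 3 and 1.66 ± 1.86 on day 4 (SD, n = 4). On day 4 AT1G74060 (L6, 1.41 ± 2.31) and AT2G33370 (L23, 1.05 ± 0.82) were higher as well (SD, n = 4). PGY1 was called higher on day 2, at 1.12 ± 0.69 (SD, n = 4, adjusted p 0.0303 in limma). Its means on the other days, in order, were 0.69, 0.01, -0.07, 0.84 and -0.00, and the difference of PGY1 between day 2 and day 0 was 0.43 (SE 0.55, unadjusted p 0.441 in limma). None of these day calls held with no dye term or without set 4. The calls of AT3G09630 on days 0, 3 and 4, those of AT1G74060 and AT2G33370 on day 4 and that of PGY1 on day 2 were also lost without set 1.

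The last comparison asked whether the ratio changed as the flowers formed. None of the 38 members changed between day 0 and any later day, by the F test over days or by a slope per day, at an adjusted p under 0.05 in limma. No gene of all 10607 was called either (0% in each comparison). At an unadjusted p under 0.05, 0 members passed any of these tests, against 1.86%, 1.97%, 4.78%, 1.81% and 3.11% of all genes for days 1 to 5, 1.34% for the F test and 2.48% for the slope. These tests left out the set, which can make them less sensitive, as each day had 1 array of each set. With the set added to the fit as a fixed block, 0 members were called in any of them. Of all genes 4 then differed from day 0 on day 3 and 1 on day 5. At an unadjusted p under 0.05 in limma, 1 member then passed for the slope. Without set 1 the count of all genes that differed between day 0 and day 3 was 111, with 0 members among them.

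The median change of the members from day 0 was -0.23, 0.29, 0.09, 0.23 and -0.13 on days 1 to 5, where the medians of all genes were 0.13, 0.17, 0.05, 0.10 and 0.24. All 5 comparisons share the day 0 arrays. The median standard error of a member's difference was 0.64, which gives an unadjusted 95% interval of ±1.33 with 4 arrays a day. Calls were adjusted over all tested genes, so for most members a difference had to be larger than this to pass. The absence of calls therefore does not exclude changes of about this size. AT5G48760 (L13a) had day means of -4.59, -4.63, -4.30, -4.07, -4.47 and -4.37. AT4G10450 (L9) had day means of -2.73, -2.91, -2.55, -2.63, -2.60 and -2.58. Neither gene passed a test of change over days.

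**Figure D5:**
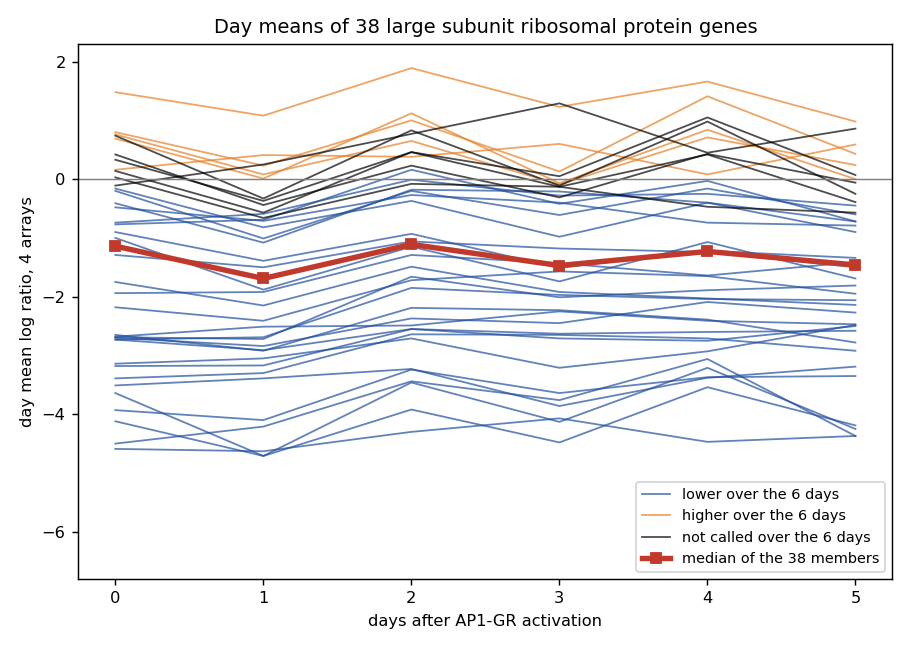
Day mean log ratio of 4 arrays (vertical axis) against day after AP1-GR activation for each of the 38 members, coloured by the call over the 6 days, with the median of the members as a thick line with squares. The median stays between -1.69 and -1.11, and no member passed a test of change over days.

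The other ribosomal protein genes were also mostly lower, given here as counts and medians with no test. Of 45 other large subunit genes 37 were lower and 2 were higher (median -1.63). Of 58 small subunit genes 37 were lower and 7 were higher (median -1.21). With set means the small subunit counts were 36 and 2. The lowest and highest other large subunit genes were AT2G25210 at -3.46 ± 1.84 and AT3G11250 at 0.55 ± 0.42 (SD, n = 24). Among small subunit genes they were AT2G17360 at -4.70 ± 1.07 and AT5G58420 at 0.67 ± 0.80 (SD, n = 24).

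Of 10 measured ribosome biogenesis genes 8 were lower and 1 was higher, and their median was -0.69. With set means 5 of them were lower and 1 was higher. These ran from IMP4 (AT1G63780) at -3.63 ± 1.58 to AT5G27120 at 0.73 ± 0.83 (SD, n = 24). Of 6 translation elongation genes 4 were lower and 2 were higher (median -1.29). These ran from AT5G19510 at -2.76 ± 0.71 to AT5G60390 at 1.48 ± 2.58 (SD, n = 24). AT5G60390 moved with the dye as the high L4 gene did, at -0.79 in Cy3 and 3.75 in Cy5. The members' gene spans ran from 951 to 3001 bases with a median of 1698, against 2180 for all genes. Among the 6768 tested genes outside these lists with a span in that range, the median ratio was -0.28 and 48.5% were lower.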

How the data were processed

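The authors deposited 1 table of normalized values for 26102 probes on 24 arrays, taken as log2 channel ratios from their range (-10.53 to 10.07). The platform annotation named 13960 of these probes and left 12142 unnamed, and 48 named probes were not matched to RefSeq. On each day 770 to 4424 probes shared 1 set of 4 values, which was read as no measurement. Values of a gene were averaged, and at least 2 were needed on each day. Ratios were fitted with limma 3.58.1 in R 4.3.3 (lmFit and eBayes), with a mean per day and a dye term over 24 arrays. Tests were 2-sided with Benjamini-Hochberg adjustment over all 10607 genes at 0.05. Arrays were taken as independent and the set number was not used in the main fit, although arrays of a set resembled one another. Python 3.11.15 (numpy 2.4.6, pandas 2.3.3) made the tables, and the fit was tested on simulated data. Spot signals were not used here, so signal over background is unknown and the number of arrays limits the precision.

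The members and the lists (other large subunit, small subunit, ribosome biogenesis, translation elongation, floral and green tissue markers) were chosen with earlier results of these data known. All members may be named, with values in full for the 6 lowest and 6 highest called, families with paralogues and PGY1. Of other lists the lowest and highest gene are named. Alternatives were centring, scaling, the set as a block, set means, no dye term, other value filters and leaving out arrays or sets.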

Additional observations from a re-analysis of the deposited data

Results flagged for a closer look

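In each of 228 groups (38 members on 6 days, 4 arrays each) the array farthest from the other three was compared with Dixon's 95% critical value for 4 values, 0.829. A single array stood apart in 8 groups (3.51%), and chance alone gives about 1 in 20. In 4 of the 8 it was a low Cy3 array of set 1. For AT1G18540, AT2G01250 and AT5G23900 it was the same array, that of day 0, where the median of all genes was -0.56. Flags on the same array are not independent of one another. AT1G18540 (L6) was at -4.17 on day 0 in set 1, with the others between -2.24 and -2.08. AT2G01250 (L7) was at -3.51 on day 0 in set 1, with the others between -1.84 and -1.64. AT5G23900 (L13) was at -5.10 on day 0 in set 1, with the others between -3.13 and -2.85. AT1G33120 (L9) was at -3.42 on day 4 in set 1, with the others between -2.20 and -2.01.

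The remaining arrays were in sets 1 and 2. AT5G02870 (L4) was at 2.18 on day 3 in set 1 (Cy5), with the others between -0.08 and 0.21. AT3G13580 (L7) was at -3.49 on day 5 in set 2 (Cy5), with the others between -2.25 and -2.08. AT5G60670 (L12) was at 0.71 on day 0 in set 2 (Cy3), with the others between -5.70 and -4.72. AT3G16780 (L19) was at 0.12 on day 2 in set 2 (Cy3), with the others between -0.41 and -0.36.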

How the results depend on the processing

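Member means kept direction and side of the threshold in 442 of 494 cases, left-out arrays apart. The cause of each shift was not tested. Single-orientation fits, centring on the tested genes and leaving out any shared values were chosen after seeing the data. Values on each day rest on 4 arrays, or on 2 in the single-orientation fits, and spot signals were not used here, so dim and saturated spots were not told apart.

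Members higher over the 6 days (5) came to 8 with arrays centred on the tested genes. The count of all genes higher rose under this centring too, so the rise was not confined to members. Members lower fell from 27 to 24, as AT1G67430, AT2G34480 and AT4G02230 lost their calls (adjusted p 0.137, 0.159 and 0.0854 in limma). Members higher came to 2 with the set as a random block, 2 with no dye term and 1 with set means. They came to 0 on Cy3 arrays and 11 on Cy5 arrays. Of all genes, fewer were higher with the random block or set means, and nearly the same number with no dye term. The median of members was -1.99 on Cy3 arrays. On Cy3 arrays alone, members higher were 0 on days 0, 2, 3 and 4, and members lower were 1 on day 2, 11 on day 3, 4 on day 4 and 7 on day 5. On Cy5 arrays alone, members lower on days 0 to 5 were 7, 10, 6, 5, 6 and 7, and members higher were 5 on day 0 and 0 on day 3. Counts of all genes lower or higher on single days were taken in the main fit only. The day counts of members in this section thus cannot be set against all genes, and a loss of power with 2 arrays a day was not tested.

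Centring and scaling gave 13 lower and 3 higher members on day 0, 1 higher on day 1, and 48 genes of all with a dye difference (74). Centring gave 0 higher on day 3. All genes that differed between day 0 and day 3 came to 1 under each of the 3 centrings. With no dye term 0 members were higher on days 0, 2, 3 and 4. The median of all genes (-0.16) was 0.00 when centred on the tested genes, a shift of all genes, and 0.01 with shared values kept or with values needed on 1 day only. With shared values kept 1 member was higher on day 1 and 0 on day 3, and with values needed on 1 day only 0 were higher on day 3.

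Within sets, 48 of 60 pairs of arrays from different days had deviations correlated above 0.1, and 22 of 24 arrays correlated best with their own set number. Between sets 21 of 180 such pairs lay above 0.1, and the median correlation was 0.28 within sets and -0.09 between them. Arrays of a set thus resembled one another, which the main fit does not take into account. The fits with the set as a block and the set means do. With the set as a fixed replicate block 1, 2 and 1 members were higher on days 1, 3 and 5, and 4 and 1 genes of all differed from day 0 on days 3 and 5. With the set as a random replicate block (correlation 0.165) 1 member was higher on day 1, and these 2 counts were 5 and 1. The block changed the calls of AT5G02870, PGY1, AT1G27400, AT1G67430 and AT2G34480 (lost, random block) and AT3G14600 (gained with the fixed block, adjusted p 0.0112 in limma, but not with the random block, 0.184, or set means, 0.355), and of no other member over the 6 days.

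The mean of AT5G27850 turned to 0.00 when centred, 0.05 with scaling, 0.14 centred on the tested genes and 1.13 on Cy5 arrays. On Cy3 arrays the means of AT3G09630 (-0.04), AT5G02870 (-0.10), AT1G74060 (-0.95), AT2G47610 (-1.42), PGY1 (AT2G27530, -0.00), AT1G27400 (-0.86), AT2G33370 (-0.58) and AT3G09200 (-1.02) turned negative. On Cy5 arrays those of AT4G27090 (0.66), AT4G16720 (0.28), AT1G67430 (0.95) and AT2G34480 (1.03) turned positive.

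With 1 set or 1 array left out, members lower over the 6 days ranged from 25 to 28, members higher from 1 (without set 4) to 7, and the median of members from -1.57 to -1.16. All genes lower ranged from 3898 to 4712 and all genes higher from 2561 to 3266, both lowest without set 4. Members with a dye difference ranged from 7 to 13 and all genes with one from 26 to 99, lowest without set 4. Members higher ranged from 0 to 4 on day 0, 0 to 2 on day 2, 0 to 1 on day 3 and 0 to 4 on day 4. Members lower ranged from 11 to 21 on day 3 and 13 to 21 on day 4. All genes that differed from day 0 ranged from 0 to 111 on day 3 (111 without set 1) and 0 to 1 on day 5, and those called by the F test from 0 to 1. No member was called in any test over days. The mean of AT3G09200 ranged from -0.13 to 0.20, that of AT3G14600 from -0.09 to 0.93 and that of AT5G27850 from -0.08 to 0.06. Each member had 1 probe, so fitting probes singly left member values as they were. Day differences and the F test were not run with values needed on 1 day only.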

Other observations

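Of 11 listed floral and meristem marker genes 2 were measured. CLV3, which encodes a peptide that limits stem cell number, had a mean of -0.31 ± 0.51 (SD, n = 24, adjusted p 0.0208 in limma). The CLV3 call was lost with set means (adjusted p 0.154), with the set as a random block (0.0895) and with arrays centred on the tested genes (0.274). UFO, an F-box partner of the floral regulator LEAFY, was higher at 1.01 ± 0.30 (SD, n = 24). Of 14 listed green tissue genes 3 were measured, from LHCB4.2 at -2.71 ± 0.54 to LHB1B2 at 0.58 ± 1.33 (SD, n = 24), which are light-harvesting antenna proteins. UFO lay above 0 and LHCB4.2 below 0 on all 24 arrays. These are ratios of 2 pools of the same tissue and give no level.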
